A study of Mus musculus with 6 samples.

Results

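The 50 most abundant nuclear tRNA features in the duodenum of female mice were described across 6 short-RNA libraries, 3 from wild-type mice and 3 from mice heterozygous for Polr3b. Wild-type mice were C57Bl/6N. Heterozygous mice carried one copy of the allele Polr3b<em7(IMPC)Tcp> on the same background, a germline frameshift made with a Cas9 nickase and predicted to truncate the protein early, so that all cell types of the tissue carry it. Heterozygous mice came from Polr3b+/- parents and wild-type mice from Polr3b+/+ parents, each mated with wild-type partners, so that parentage and genotype cannot be told apart. Polr3b mRNA was not analysed here, which leaves the genotype labels unchecked by the counts. All mice were fasted overnight before the duodenum was taken, and their age is not given in the sources used here. The RNA was size-selected and demethylated before sequencing, and the deposited table holds estimated counts of 1929 short transcripts, of which 187 are nuclear tRNA features. A feature is 1 distinct tRNA sequence with an RNAcentral identifier, which can stand for several gene copies. The 50 members were chosen by their measured abundance. The counts of each feature were divided by the summed counts of all nuclear tRNA features of that library, which are called the tRNA pool here, and the features were ranked by the mean of the 6 shares. The shares and ranks below are therefore a description, and features are referred to by rank.

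tRNAs carry amino acids to the ribosome and read codons through their anticodon. RNA polymerase III (Pol III) transcribes their genes, recruited by TFIIIC and TFIIIB to promoter elements that lie inside the gene, and Polr3b encodes its second-largest subunit. Mammals hold many tRNA gene copies, including isodecoders, which share an anticodon and differ elsewhere in the sequence. Which amino acid and anticodon each feature stands for was not analysed here, since the files do not pair the identifiers with names, and no sequence is printed for the same reason.

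Wild-type replicate 1 was the shallowest library with 1719869 counts and heterozygous library 2 the deepest with 9771623, and the 2 deepest libraries were heterozygous. Heterozygous libraries are numbered by table column, since the headings do not say which mouse is which. Wild-type replicate 1 and heterozygous library 3 stood apart from the other libraries of their genotype, as described with the spread, and results that rest on them are given with and without them. Of the hairpin transcripts of microRNAs listed as tissue markers, all 4 of intestinal epithelium (Mir192, Mir194-1, Mir194-2 and Mir215) were present, with summed counts from 7 to 126 per library. The smooth muscle list (2 of 6 in the table) summed to between 3 and 84. The blood cell list (4 of 6) summed to between 1 and 35 and the pancreas list (3 of 4) to between 1 and 8. The liver marker Mir122 had 1 count in 1 library. Heterozygous library 2 had the highest sum of every list but liver, at 126 (epithelium), 84, 35 and 8. Heterozygous library 1, with 8869767 counts in total, had 75, 23, 9 and 1. Whether tissue composition differed between libraries was not tested. In bulk tissue, fewer cells of a type and less RNA per cell cannot be told apart.

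The 50 features held most of the tRNA pool. Wild-type replicates 1, 2 and 3 had 88.6%, 90.9% and 91.4% of it in these features, against 92.2%, 93.9% and 92.1% in heterozygous libraries 1, 2 and 3. Wild-type libraries averaged 90.3% ± 1.50 and heterozygous libraries 92.7% ± 0.998 (SD, n = 3 each), and the genotypes did not overlap. The other 137 features shared the remaining 6.13% to 11.4%. Each of the 50 had counts in every library, and the lowest was 485 counts, for rank 41 in wild-type replicate 1. Among the other 137, 45 were at 0 in at least 1 library.

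Measured against all short transcripts of the table, the 50 features took up 25.4%, 23.9% and 18.7% of the counts in wild type, against 35.0%, 29.4% and 29.9% in heterozygotes. Every heterozygous library lay above every wild-type library, with means of 22.7% ± 3.50 and 31.4% ± 3.06 (SD, n = 3 each), a difference of 8.74 percentage points that ran from 6.77 to 10.1 when any single library was left out. The difference was 5.54 points when rank 1 was left out of the sum and 17.3 when the denominator was the counts of all transcripts other than nuclear tRNAs. No p-value is given for sums over the members, because they were chosen with results of these data known. Wilson intervals at the 95% level were at most 0.0889 percentage points to either side of any of these shares and cover counting error only.

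**Figure D1:**
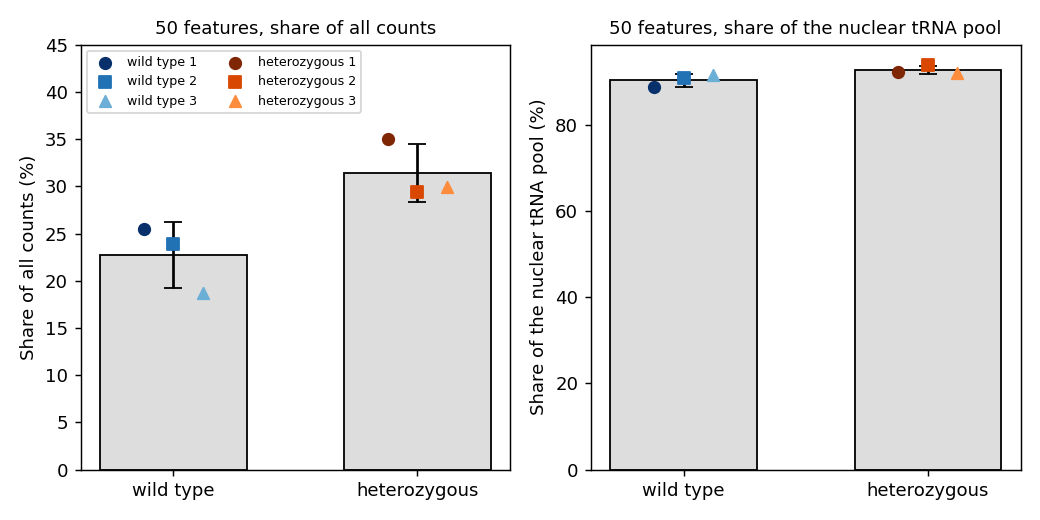
Summed share of the 50 features in all counts (left, %) and in the nuclear tRNA pool (right, %). Bars are genotype means, error bars 1 SD (n = 3) and points single libraries. All 3 heterozygous points lie above the wild-type points in both panels, at 29.4% to 35.0% against 18.7% to 25.4% on the left.

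The pool was steep at its top, and its leading feature differed between libraries. Rank 1 led in heterozygous libraries 1 and 2, rank 3 in wild-type replicates 2 and 3, and rank 4 in wild-type replicate 1 and heterozygous library 3. Ranks 1 to 4 together held 28.0%, 33.7% and 33.9% of the pool in wild type, against 34.5%, 42.3% and 30.3% in heterozygotes, and the genotypes overlapped. The number of features needed to reach 50% of the pool was 13, 8 and 9 in wild type, against 7, 6 and 10 in heterozygotes. The effective number of features, the inverse of the summed squared shares over all 187, was 30.0, 23.0 and 20.6 in wild type, against 18.4, 13.7 and 26.8 in heterozygotes. Wild-type replicate 1 thus had the most even pool of the 6 libraries by both measures and heterozygous library 2 the least even.

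**Figure D2:**
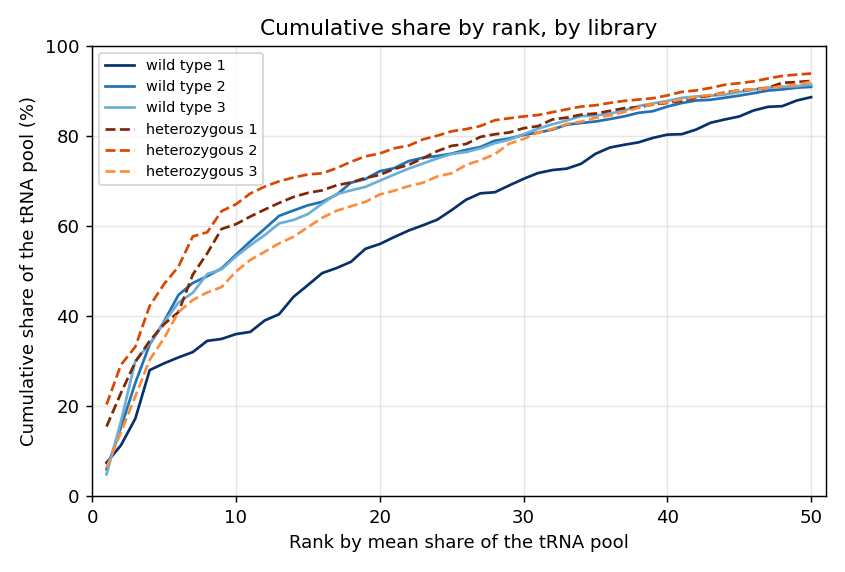
Cumulative share of the nuclear tRNA pool (%) against rank for each library (solid lines wild type, dashed lines heterozygous). Wild-type replicate 1 runs below the other 5 from rank 2 on and reaches 36.0% at rank 10, where the others lie between 49.9% and 64.8%.

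Ranks 1 to 4 were the only features with a mean share above 5%. Rank 1 made up 7.46%, 5.99% and 4.85% of the pool in wild type, against 15.5%, 20.4% and 6.36% in heterozygotes. It was highest in heterozygous libraries 1 and 2, while heterozygous library 3 lay inside the wild-type range. Rank 2 made up 3.86%, 9.29% and 11.7% in wild type, against 7.44%, 8.82% and 7.83% in heterozygotes. Rank 3 held 5.92%, 9.88% and 13.4% in wild type, against 6.91%, 4.01% and 7.99% in heterozygotes. The wild-type replicates enclosed the heterozygous libraries at rank 2 and all but heterozygous library 2 at rank 3. Rank 4 held 10.8%, 8.54% and 3.89% in wild type, against 4.69%, 9.07% and 8.11% in heterozygotes, and its genotypes overlapped as well.

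Ranks 5 to 10 each held between 2.17% and 4.11% of the pool on average. Rank 5 had 1.50%, 5.09% and 4.69% in wild type, against 3.71%, 4.86% and 4.80% in heterozygotes. Rank 6 had 1.31%, 5.91% and 4.41% in wild type, against 2.68%, 3.86% and 5.80% in heterozygotes. Both were lowest in wild-type replicate 1 and overlapped otherwise. Rank 8 had 2.49%, 1.49% and 4.13% in wild type, against 4.69%, 0.912% and 1.67% in heterozygotes, and the heterozygous libraries held both its highest and its lowest value. Rank 10 had 1.08%, 3.01% and 2.86% in wild type, against 1.07%, 1.52% and 3.47% in heterozygotes. Ranks 7 and 9 are described with the tests.

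Among ranks 11 to 20, the share of a single library ran from 0.258% (rank 16 in heterozygous library 2) to 3.85% (rank 14 in wild-type replicate 1). Rank 12 had 2.53%, 2.79% and 2.26% in wild type, against 1.55%, 1.53% and 1.83% in heterozygotes, and its share was lower in every heterozygous library. Rank 14 had 3.85%, 1.20% and 0.758% in wild type, against 1.33%, 0.837% and 1.46% in heterozygotes. Rank 16 had 2.67%, 0.779% and 2.35% in wild type, against 0.560%, 0.258% and 2.12% in heterozygotes. In both of these, wild-type replicate 1 was the highest of all 6 libraries.

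As shares of the pool, ranks 11 and 13 spread less in heterozygotes than in wild type, while on normalised counts the SD of rank 13 was larger in heterozygotes (8992 against 5200). Rank 11 had 0.491%, 2.99% and 2.47% in wild type, against 1.70%, 2.40% and 2.55% in heterozygotes. Rank 13 had 1.39%, 2.85% and 2.59% in wild type, against 1.46%, 1.17% and 1.85% in heterozygotes. Both were lowest within wild type in replicate 1, which was the highest library of all at ranks 15 and 19. Rank 15 had 2.61%, 1.15% and 1.31% in wild type, against 0.910%, 0.685% and 2.13% in heterozygotes. Rank 19 had 2.88%, 0.807% and 0.765% in wild type, against 0.985%, 1.20% and 0.972% in heterozygotes, so that its other 5 libraries lay close together. Rank 17 had 1.12%, 1.58% and 2.102% in wild type, against 1.13%, 1.14% and 1.54% in heterozygotes. Rank 18 had 1.39%, 2.66% and 0.825% in wild type, against 0.631%, 1.42% and 1.01% in heterozygotes. Rank 20 had 1.07%, 1.75% and 1.38% in wild type, against 0.687%, 0.632% and 1.63% in heterozygotes. The genotypes overlapped in these 7 features. Ranks 21 to 50 had mean shares between 0.415% and 1.15%, and single libraries ran from 0.0983% to 2.34% of the pool.

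**Figure D3:**
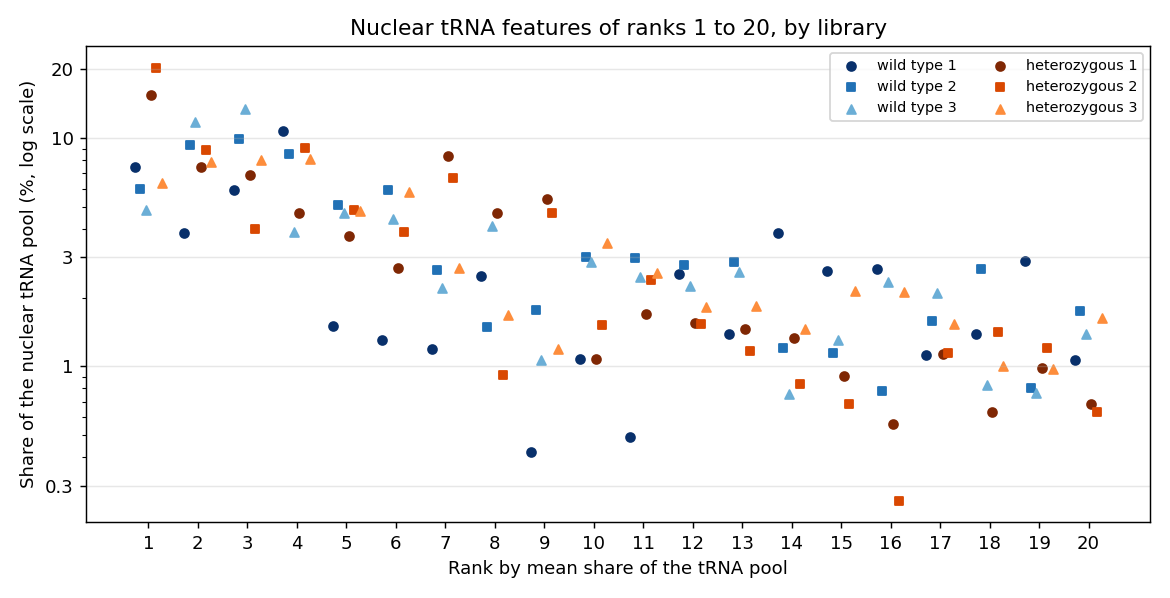
Share of the nuclear tRNA pool (%, log scale) of ranks 1 to 20 in each library, 1 point per library. Blue points are wild type and orange to brown points heterozygous. The points of most ranks intermingle, while at rank 7 the heterozygous points (2.70% to 8.35%) lie above the wild-type points (1.19% to 2.66%).

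Most members were among the most abundant features of every library. The first 50 features of the wild-type mean and of the heterozygous mean shared 47, and 35 of the 50 members were among the first 50 of every single library. When the 50 were chosen from 5 libraries, 44 to 48 of them were among the first 50 of the library left out, and 49 or 50 of them were members. Just inside the limit of the rule, rank 49 had a mean share of 0.420% and rank 50 of 0.415%, and just outside it rank 51 had 0.375% and rank 52 0.358%. Rank 52 was high in wild-type replicate 2, with 0.0902%, 1.54% and 0.464% of the pool in wild type, against 0.0264%, 0.00806% and 0.0179% in heterozygotes.

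Which members differed between genotypes was tested with DESeq2 (Wald test, median-of-ratios size factors, adjusted p under 0.1 over all tested transcripts). DESeq2 gave 49 members an adjusted p-value and called 3 of them as differentially expressed, all higher in heterozygotes (ranks 7, 9 and 48), and 0 were lower. In the table as a whole, 2.32% of tested transcripts were called, and 0.954% were called as higher. Among the other nuclear tRNA features, 4 of the 103 with an adjusted p-value were called, 1 higher and 3 lower. Rank 48 is a member through its level in heterozygotes, so its call is tied to the choice of members. An unadjusted p-value under 0.05 was reached by 6 members (ranks 1, 2, 5, 7, 9 and 48), all higher in heterozygotes, against 2.75% of all transcripts with a p-value. The quasi-likelihood test of edgeR called 0 of the 50 members and 0.0% of the table, with adjusted p-values of 0.768 or above, and had 4 members at an unadjusted p-value under 0.05 against 3.29% of the table. How many litters or preparations the libraries of one genotype come from is not given in the sources used here, so the p-values measure the spread between these 6 libraries, and litter is confounded with genotype.

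Rank 7 (URS00002D40C8_10090) was 4.95-fold higher in heterozygotes. Its share of the pool was 1.19%, 2.66% and 2.20% in wild type, against 8.35%, 6.72% and 2.70% in heterozygotes. Every heterozygous library lay above every wild-type library, the closest pair being heterozygous library 3 and wild-type replicate 2, and the means were 2.01% ± 0.747 and 5.92% ± 2.91 (SD, n = 3 each). DESeq2 put the log2 fold change at 2.31 with an SE of 0.61 (adjusted p = 0.0102), while the adjusted p in edgeR was 0.925. Rank 9 was 5.94-fold higher. Its DESeq2-normalised counts were 6165, 16521 and 6786 in wild type, against 87458, 65588 and 22044 in heterozygotes, with no overlap. As a share of the pool it had 0.421%, 1.76% and 1.07% in wild type, against 5.42%, 4.70% and 1.19% in heterozygotes, and heterozygous library 3 fell below wild-type replicate 2. DESeq2 put the log2 fold change at 2.57 with an SE of 0.80 (adjusted p = 0.0610), while the adjusted p in edgeR was 1.

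Rank 48 (URS000062C4DE_10090) was 5.55-fold higher in heterozygotes and was the called member with the smallest p-value. Its share of the pool was 0.157%, 0.255% and 0.213% in wild type, against 1.10%, 0.576% and 0.417% in heterozygotes. The 3 heterozygous values all lay above the wild-type range, and DESeq2 put the log2 fold change at 2.47 with an SE of 0.61 (adjusted p = 0.00416), while the adjusted p in edgeR was 0.768. Within the pool it was in position 73, 56 and 63 in the wild-type replicates and in position 21, 34 and 48 in the heterozygous libraries. It was thus outside the first 50 of every wild-type library and entered the ranking through its level in heterozygotes, so that its direction is not independent of the choice of members.

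Rank 7 kept a steadier ratio to the other called members than those had to each other. Counts of rank 7 were 7.59, 10.4 and 10.3 times those of rank 48 in wild type, against 7.58, 11.7 and 6.48 times in heterozygotes. Counts of rank 7 were 2.84, 1.51 and 2.05 times those of rank 9 in wild type, against 1.54, 1.43 and 2.27 times in heterozygotes. The SD of the log2 ratio over the 6 libraries was 0.34 for ranks 7 and 48 and 0.40 for ranks 7 and 9, and it was 0.65 for ranks 9 and 48, whose ratio ran from 2.68 to 8.16, beside a median of 1.04 over all 1225 pairs of members. The 3 were called for the same pattern in the same libraries, so the steadiness of their ratios is not independent of the choice. Reads shared between similar tRNA sequences may be divided among them by the read assignment.

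Counting all 50 members, 39 had a log2 fold change above 0 and 11 below 0. The median was 0.43, beside -0.04 over all tested transcripts, 0.20 over the other nuclear tRNA features and 0.10 over mitochondrial tRNAs, which are made by another polymerase. By rank, the median was 0.92 for ranks 1 to 10, of which 10 of 10 were above 0. It was 0.15 for ranks 11 to 25 (10 of 15) and 0.29 for ranks 26 to 50 (19 of 25). The ranks use the heterozygous shares too, so a feature high in heterozygotes moves up, and the bands are not independent of direction. Of the 2 called members in ranks 1 to 10, rank 9 was in position 52, 13 and 24 in wild type, against 5, 6 and 23 in heterozygotes. Rank 7 was in position 29, 12 and 13, against 2, 4 and 8. Without heterozygous library 3 the median of the members was 0.05, and without wild-type replicate 1 it was 1.02. A log2 fold change above 1 was found in 10 members, beside 9.67% of tested transcripts, and one below -1 in 1 member, beside 14.2%. Standard errors of the members ran from 0.39 to 1.37.

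These directions depended on the scaling. With TMM factors the median of the members was 0.54, with size factors from transcripts other than nuclear tRNAs 0.47, and with the library total 0.18, where 28 of the 50 were above 0. With the tRNA pool itself as the scaling, the median was -0.24 and 15 of the 50 were above 0. Between the same scalings the median over all tested transcripts moved from 0.07 to -0.89, so that the members lay above it in each. Relative to the pool, ranks 1 to 10 had a median of 0.02, ranks 11 to 25 of -0.49 and ranks 26 to 50 of -0.29. These bands carry the same limit, since the rank order used the heterozygous shares.

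**Figure D4:**
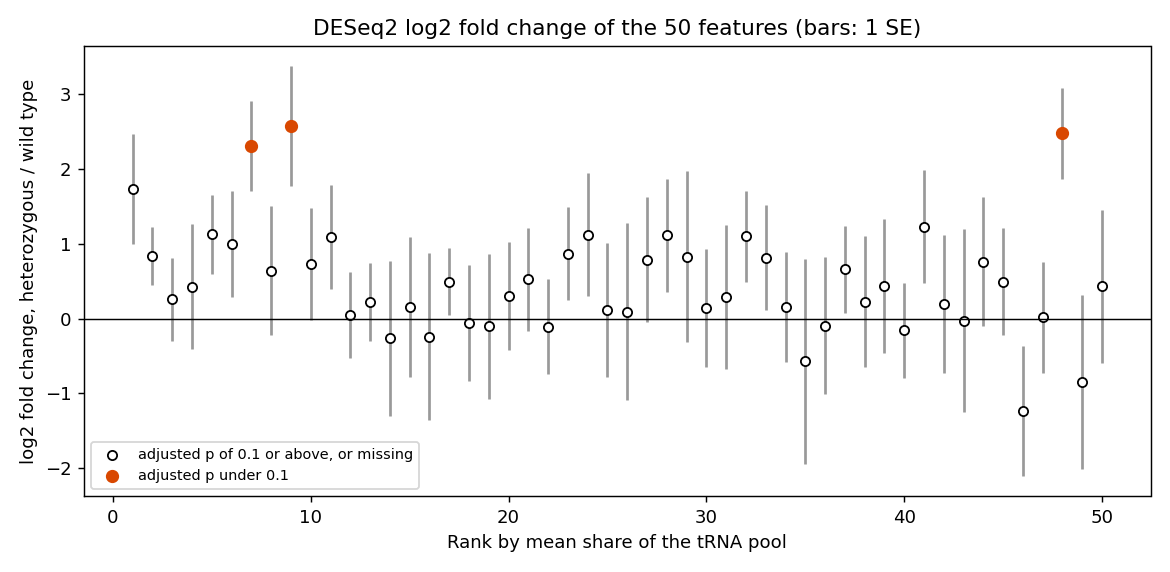
DESeq2 log2 fold change (heterozygous over wild type) of the 50 features by rank, with bars of 1 SE. Filled orange points are the 3 features with an adjusted p-value under 0.1, at 2.31 (rank 7), 2.57 (rank 9) and 2.47 (rank 48). The other features lie between -1.23 and 1.73.

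Not all of the larger differences passed the test. Rank 1 had DESeq2-normalised counts of 109228, 56201 and 30779 in wild type, against 249628, 284342 and 117993 in heterozygotes. The genotypes did not overlap, but heterozygous library 3 was close to wild-type replicate 1, and the log2 fold change of 1.73 (SE 0.73) had a DESeq2 adjusted p of 0.443. Rank 5 had normalised counts of 22039, 47725 and 29775 in wild type, against 59802, 67911 and 88988 in heterozygotes. The log2 fold change was 1.12 with an SE of 0.52 (DESeq2 adjusted p = 0.601). Rank 2 had 56483, 87070 and 74406 in wild type, against 119973, 123254 and 145331 in heterozygotes. Its log2 fold change of 0.83 had the smallest SE of all members, 0.39 (DESeq2 adjusted p = 0.601). Ranks 2 and 5 were also higher in every heterozygous library, although their share of the pool overlapped. Rank 41 was the last of the 5 members with the largest log2 fold changes, at 1.22 (SE 0.76, DESeq2 adjusted p = 0.897), with 1440, 7282 and 4389 in wild type, against 7519, 11218 and 11911 in heterozygotes.

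On normalised counts, 7 of the 50 members (ranks 1, 2, 5, 7, 9, 41 and 48) had all 3 heterozygous libraries above all 3 wild-type libraries, and 0 had them below. Over all tested transcripts 4.09% were higher without overlap and 6.13% lower. Of the 137 other nuclear tRNA features, 13 were higher without overlap and 3 lower. Without wild-type replicate 1, 26 members were higher without overlap, beside 15.8% of the tested transcripts. Without wild-type replicate 2 there were 11, beside 7.36%, and without heterozygous library 2 there were 12 higher and 1 lower, with 6.13% of the tested transcripts higher. Scaled to the library total, 4 members stayed apart (ranks 2, 5, 7 and 48), all higher, beside 2.04% of tested transcripts. As shares of the tRNA pool, 2 members were higher without overlap (ranks 7 and 48), beside 1.6% of all nuclear tRNA features, and 3 were lower (ranks 12, 22 and 46), beside 7.49%. Ranks 46 and 49 were outside the first 50 of the heterozygous mean and are members through their wild-type level, so their lower values in heterozygotes are tied to the choice of members. Ranks 7 and 48 were the members apart on all 3 scales. Rank 48 is a member through its heterozygous level, so its higher values are tied to the choice of members as well. Rank 22 had 1.45%, 1.57% and 1.33% of the pool in wild type, against 0.884%, 0.578% and 1.01% in heterozygotes, and rank 46 had 1.34%, 0.537% and 0.538% in wild type, against 0.204%, 0.396% and 0.167% in heterozygotes.

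The members with the lowest log2 fold changes were ranks 46, 49, 35, 14 and 16, and none passed the test. Rank 46 had normalised counts of 19581, 5030 and 3415 in wild type, against 3289, 5529 and 3096 in heterozygotes. The log2 fold change was -1.23 with an SE of 0.87 (DESeq2 adjusted p = 1). Rank 35 had 32431, 3110 and 820 in wild type, against 4011, 3988 and 16450 in heterozygotes. The log2 fold change was -0.57 (SE 1.37). Rank 49 had 18284, 3602 and 750 in wild type, against 2547, 4119 and 5901 in heterozygotes. The log2 fold change was -0.85 (SE 1.16). In each of these 3, wild-type replicate 1 was the highest library and held most of the summed wild-type counts. Without it the log2 fold change was -0.074 for rank 46, 2.08 for rank 35 and 0.97 for rank 49. Ranks 14 and 16 were at -0.27 (SE 1.04) and -0.24 (SE 1.12), and without that library at 1.34 and 0.66.

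The spread between libraries of one genotype was far larger than the counting error. The pooled SD within genotypes of log2(normalised count + 1) had a median of 0.89 over the members, a factor of 1.85, and ran from 0.25 (rank 2) to 2.07 (rank 35). It was 0.76 for ranks 1 to 10, 0.76 for ranks 11 to 25 and 0.99 for ranks 26 to 50, beside 0.98 for the other nuclear tRNA features and 0.71 for mitochondrial tRNAs. Counting error, as the inverse square root of the mean count, had a median of 0.799% over the members and 11.2% over the other nuclear tRNA features. Within wild type, the highest library exceeded the lowest by a median factor of 3.84 over the members. Within heterozygotes that factor was 2.32.

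Wild-type replicate 1 stood apart from the other wild-type replicates, and it was also the shallowest library. Its size factor was 0.337, beside 1.14 and 1.20 for replicates 2 and 3. Among all 6 libraries it was the highest in 17 members on normalised counts and in 20 by share of the pool. It was the lowest in 9 and 11. The comparisons with both other replicates that follow were made on normalised counts only and depend on the size factors. In 25 of the 50 members its normalised count was more than 2 times that of both other replicates. These were 0 of ranks 1 to 10, 8 of ranks 11 to 25 and 17 of ranks 26 to 50. The same held for 76 of the 137 other nuclear tRNA features, 0 of the 22 mitochondrial tRNAs and 163 of 734 tested transcripts. In 9 members (ranks 2, 5, 6, 9, 10, 11, 28, 33 and 41) wild-type replicate 1 was below both other replicates. This was so in 18 of the 22 mitochondrial tRNAs and 345 of 734 tested transcripts. Rank 28 shows the second pattern, with normalised counts of 3416, 13107 and 7412 in wild type, against 9270, 18047 and 24440 in heterozygotes. Rank 43 shows the first, with 22104, 1518 and 1075 in wild type, against 7803, 7724 and 8702 in heterozygotes, and DESeq2 gave it no p-value under Cook's filtering.

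Heterozygous library 3 had 3076652 counts, fewer than any library but wild-type replicate 1. On normalised counts it was the highest of its genotype in 32 members, and in 11 (ranks 10, 15, 16, 20, 26, 29, 31, 33, 35, 38 and 50) it exceeded both other heterozygous libraries more than 2-fold. It was the highest in 64 of the 137 other nuclear tRNA features and exceeded both more than 2-fold in 24 of them. The latter held for 122 of 734 tested transcripts. Among all 6 libraries it was the highest in 23 members on normalised counts and in 6 by share of the pool. Rank 29 was the most marked of the 11, with normalised counts of 22164, 4569 and 4735 in wild type, against 6414, 6017 and 43363 in heterozygotes. In composition this library lay nearer to wild type than to its own genotype. The Bray-Curtis distance over the 50 features (0 where the shares are equal, 1 where nothing is shared) was 0.277, 0.132 and 0.186 to wild-type replicates 1, 2 and 3, beside 0.289 and 0.281 to heterozygous libraries 1 and 2. Those 2 were 0.179 apart and wild-type replicates 2 and 3 were 0.178 apart. Wild-type replicate 1 was at 0.348 and 0.366 from the other wild-type replicates. The part of depth, of the mouse and of the preparation in these distances was not tested.

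**Figure D5:**
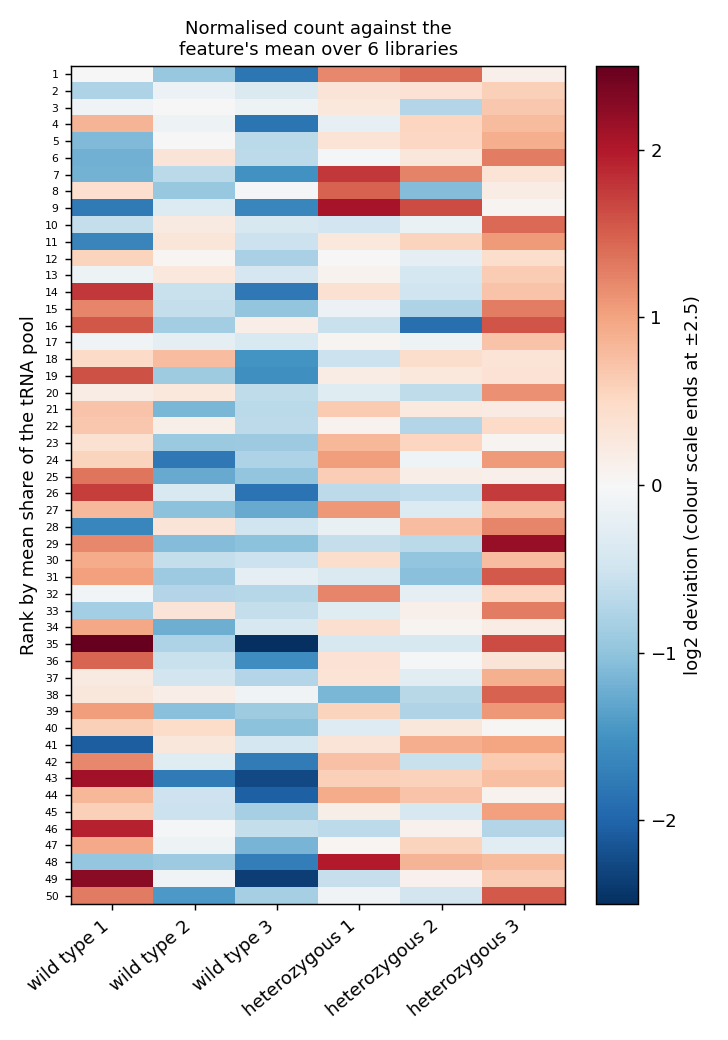
Log2 deviation of the DESeq2-normalised count from the feature's mean over the 6 libraries, for each of the 50 features (rows by rank) and each library (columns). Red is above and blue below the feature's mean, and the colour scale ends at ±2.5. Wild-type replicate 1 is red in 20 of the 25 rows of ranks 26 to 50, and the rows of ranks 7, 9 and 48 are blue across wild type.

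The number of called members rested on single libraries. Without wild-type replicate 1 it was 11, all higher in heterozygotes (ranks 1, 7, 9, 19, 21, 23, 24, 25, 27, 43 and 48), beside 5.58% of the table called as higher. Without heterozygous library 3 it was 4 (ranks 1, 7, 9 and 48), beside 1.59%, and without wild-type replicate 2 it was 3 (ranks 7, 9 and 48), beside 0.872%. Rank 48 was the only call without wild-type replicate 3 (beside 0.408%), without heterozygous library 1 (beside 0.395%) or without heterozygous library 2 (beside 0.173%). These 3 shares are over 1225, 1267 and 1738 tested transcripts, beside 734 with all 6 libraries, so they are not directly comparable. The log2 fold change of rank 48 lay between 1.97 and 2.69 over the 6 fits with 1 library left out. Its adjusted p-value in DESeq2 was 0.0990 at most. With the library total as the scaling 0 members were called, beside 0.433% of the table called as higher, and with the tRNA pool as the scaling it was also 0, beside 0.335%. The log2 fold changes of ranks 7, 9 and 48 were then 2.04, 2.28 and 2.24 with the library total and 1.56, 1.80 and 1.74 with the pool.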

How the data were processed

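RNA of duodenum from 3 wild-type and 3 heterozygous female mice was analysed. Per the labels and the study's methods, the authors used Cutadapt for trimming, Salmon with a decoy-aware all-RNA index (GRCm39) for quantification and tximport for the import of short sequences. The deposited table gives estimated counts (expected counts) for each transcript and library, as whole numbers, without scaling or pooling. Salmon divides reads among similar sequences, so the value of a single tRNA feature can carry reads of its relatives. Wild-type columns were matched by name. The headings of the other 3 columns resemble an earlier name of Polr3D, the Pol III subunit mutated in the paper's flies, and do not name Polr3b. These columns were taken as heterozygous because that is the only other group, and the headings themselves do not give the genotype.

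Members were ranked as the report describes. Members, lists and naming rule were set with earlier results of these data known. Named were ranks 1 to 20, the called members, the 5 largest and 5 smallest log2 fold changes, and ranks 49 to 52. Ranks 22, 28, 29 and 43 were added after their values were seen. Tests ran over all 1929 transcripts with DESeq2 (version 1.42.0, R 4.3.3) and edgeR (version 4.0.16). Both were tried on simulated data whose spread between libraries was not matched to these data, which says nothing on their difference here. Alternatives were other scalings, low-count filters, thresholds, denominators, pseudocounts (0.5 and 10 in place of 1) and leaving out each library. MicroRNA and mitochondrial names came from GENCODE vM21.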

Additional observations from a re-analysis of the deposited data

How the results depend on the processing

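The genotypes were compared without pairing, since the sources used here describe no pairs of wild-type and heterozygous mice. The number of called members, 3 in DESeq2, was 0 in edgeR, 0 with the library total and 0 with the tRNA pool as the scaling, and ran from 1 to 11 when single libraries were left out. The median log2 fold change of the members, 0.43, was -0.24 with the tRNA pool as the scaling and ran from 0.05 (without heterozygous library 3) to 1.02 (without wild-type replicate 1). Members whose genotypes did not overlap numbered 7, beside 4.09% of tested transcripts higher without overlap. They numbered 4 with the library total (beside 2.04%). With TMM factors there were 10, and with size factors from transcripts other than nuclear tRNAs 8. The share of tested transcripts was not computed for either, so these counts cannot be read against the table. With the tRNA pool as the scaling 2 were higher and 3 lower. With single libraries left out they numbered 9 to 26, with the 26 without wild-type replicate 1 and 13 at most without any other. Non-overlap is easier to reach with fewer libraries. Of tested transcripts 15.8% were higher without wild-type replicate 1, 7.36% without replicate 2 and 6.13% without heterozygous library 2. That share was not computed for the other libraries. The difference in the share of all counts, 8.74 percentage points, was 17.3 against transcripts other than nuclear tRNAs and 6.77 to 10.1 with single libraries left out. With single libraries left out, the difference in the share of the pool ran from 1.55 to 2.96 and the spread within genotypes from 0.66 to 0.91. The cause of these changes was not tested.

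With the tRNA pool as the scaling, the log2 fold change was -0.046 for rank 2, -0.63 for rank 3, -0.086 for rank 4, -0.16 for rank 8 and -0.20 for rank 10, and rank 3 was also below 0, at -0.12, with the library total. With single libraries left out it ran from -0.070 to 0.56 for rank 3, -0.22 to 1.07 for rank 8, -0.10 to 1.05 for rank 10, -0.72 to 1.34 for rank 14, -1.68 to 0.66 for rank 16, -1.58 to 2.08 for rank 35 and -1.35 to 0.97 for rank 49. Counting error was 1.45% at most at the mean count of a member and 4.54% at most in the shallowest library.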

Other observations

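Pairs of members whose counts kept the steadiest ratio over the 6 libraries were listed, a choice made after the values had been seen. Ranks 37 and 45 were the steadiest of the 1225 pairs, with ratios of 0.930, 1.29 and 1.30 in wild type, against 1.39, 1.30 and 1.11 in heterozygotes (SD of the log2 ratio 0.21). Ranks 6 and 33 followed, with ratios of 4.15, 5.32 and 5.11 in wild type, against 6.43, 5.92 and 5.32 in heterozygotes. Ranks 11 and 28 had ratios of 2.11, 2.14 and 2.11 in wild type, against 2.95, 1.86 and 1.94 in heterozygotes. The members of the last 2 pairs were all among the 9 that were lower in wild-type replicate 1 than in the other wild-type replicates. Between those 2 pairs in steadiness lay ranks 19 and 36, ranks 21 and 34, and ranks 10 and 33. Ranks 10 and 33 were also among the 9. Ranks 19, 36, 21 and 34 were among the 25 in which wild-type replicate 1 exceeded both other replicates more than 2 times. At the other end, counts of rank 9 were 0.157, 2.26 and 0.455 times those of rank 16 in wild type, against 9.69, 18.2 and 0.561 times in heterozygotes. What the paired features share in sequence was not analysed here.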
